A study of Mus musculus with 24 samples.

Results

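The β-thymosins Tmsb4x and Tmsb10, the profilins Pfn1 and Pfn2, cofilin (Cfl1), the cytoplasmic actins Actb and Actg1 and the tubulin-binding Stmn1 were followed through 24 RNA-sequencing libraries of mouse striatum. These 8 genes were taken by symbol from the 24079 rows of the raw count table. Tmsb4x was chosen by its rise in heavy polysomes of the dorsal striatum (DS), and Tmsb10 was named by the study from the same contrast. Their values in that contrast, and in every other comparison that draws on the same heavy polysomal libraries of the DS, are therefore given as a description, without a test. The animals were rpS6P-/- knockin mice, in which every phosphorylatable serine of ribosomal protein S6 is replaced by alanine, and their wild-type littermates. Males and females of a mixed C57Bl/6, Sv129 and ICR background were used, and tissue of several mice was pooled for each replicate. The mutation is present in every cell and throughout life, so that its acute and developmental consequences cannot be told apart. From the nucleus accumbens (Acb) and from the DS of each genotype, poly-A RNA was sequenced from whole lysates, the input to the sucrose gradient, and from heavy polysomal fractions, which hold mRNAs carrying many ribosomes (more than 4 per the labels, 4 or more in the study's methods). Each of the 8 groups had 3 biological replicates.

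Actin cycles between a pool of free monomers and filaments. β-Thymosins bind monomers and hold them back from polymerization, profilins deliver monomers to growing filament ends, and cofilin severs ageing filaments and returns subunits to the pool. Stathmin, in turn, sequesters tubulin dimers and destabilizes microtubules. In neurons this machinery shapes dendritic spines and growth cones. The mRNA of β-actin also served as a reference for the study's own qRT-PCR (β-actin or Hprt2 in its methods, β-actin in its figure legend).

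The thymosin coding sequences are shown because both are far shorter than those of the other 6 genes. Tmsb4x lies on chromosome X (GRCm38, chrX:167207093-167213479, minus strand, 3 exons) and Tmsb10 on chromosome 6 (chr6:72957347-72958748, minus strand, 2 exons). In the GENCODE M21 transcripts both coding sequences are 132 bases long, without the stop codon. They were identical at 92 of 132 bases (69.7%), and capitals mark the 40 positions at which they differ.
Tmsb4x: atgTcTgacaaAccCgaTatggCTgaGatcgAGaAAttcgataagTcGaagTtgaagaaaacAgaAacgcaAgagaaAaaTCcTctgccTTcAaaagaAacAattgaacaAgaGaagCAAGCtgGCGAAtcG
Tmsb10: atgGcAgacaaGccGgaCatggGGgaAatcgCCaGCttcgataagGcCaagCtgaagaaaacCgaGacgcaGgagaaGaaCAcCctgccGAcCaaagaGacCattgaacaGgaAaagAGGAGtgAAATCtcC
Only 5 of the 11659 well-covered genes (at least 50 reads on average) with a known coding length reached no further than 132 bases. Both thymosins are among these 5, and the median gene had 1410 bases. The coding sequences of Pfn1 and Pfn2 span 420 bases each, that of Stmn1 447, that of Cfl1 498 and those of Actb and Actg1 1125. Actb and Actg1 shared 88.6% of their coding bases, so that a few of their reads may be exchanged, whereas Pfn1 and Pfn2 shared 61.7%.

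The libraries held between 9280589 and 34703044 reads assigned to genes, and the 8 mRNAs together took 0.469 to 1.01% of them. The lowest count of any of them in any library was 733 reads, for Pfn1. Levels are given as CPM, counts scaled to library size with TMM factors over all 24 libraries. Levels of different genes are ranked only as RPKM, the same scaled to transcript length in kilobases. Ratios between genes are of CPM, without length scaling, and serve to compare libraries. Rps6 itself, the mutated gene, did not pass the test between genotypes in any sample type, with log2 differences between -0.05 and 0.13 (counts per gene do not show the replaced codons). The tissue label was borne out by markers of medium spiny neurons. Of the 12 symbols listed, among them both Drd1a and Drd1 for the same receptor, 11 were detected. Their summed level lay between 4238 and 7339 CPM in all groups. Summed microglial markers (10 of 10 detected) matter here because thymosin β4 is abundant in microglia. They lay between 279 and 377 CPM in Acb whole lysates and between 163 and 217 CPM in DS whole lysates. In Acb heavy polysomes they lay at 405 to 566 CPM in wild-type and 413 to 452 CPM in rpS6P-/- mice. In DS heavy polysomes the ranges were 237 to 262 and 255 to 358 CPM. The part of microglia in the thymosin levels was not tested. The 5 cortical excitatory markers summed to 738 to 962 CPM in DS and 69.3 to 197 CPM in Acb whole lysates. In such bulk samples, fewer cells of a type and less mRNA per cell cannot be told apart.

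In whole lysates Tmsb4x was the most abundant of the 8 mRNAs per length. In wild-type Acb it reached 1346 ± 103 RPKM (SD, n = 3), followed by Actb at 744 ± 92.8, Cfl1 at 621 ± 28.4 and Actg1 at 576 ± 59.5 RPKM. Tmsb10 (416 ± 83.0 RPKM) and Stmn1 (371 ± 7.86 RPKM) came next, and Pfn2 (219 ± 9.61 RPKM) and Pfn1 (106 ± 19.0 RPKM) were the least abundant. Cfl1 and Actg1 overlapped between replicates, as did Tmsb10 and Stmn1. The other neighbours in this order did not overlap. In wild-type DS the order was Tmsb4x, Actb, Cfl1, Actg1, Stmn1, Tmsb10, Pfn2 and Pfn1. There only Actg1 (639 to 727 RPKM) and Stmn1 (603 to 702 RPKM) overlapped.

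**Figure D1:**
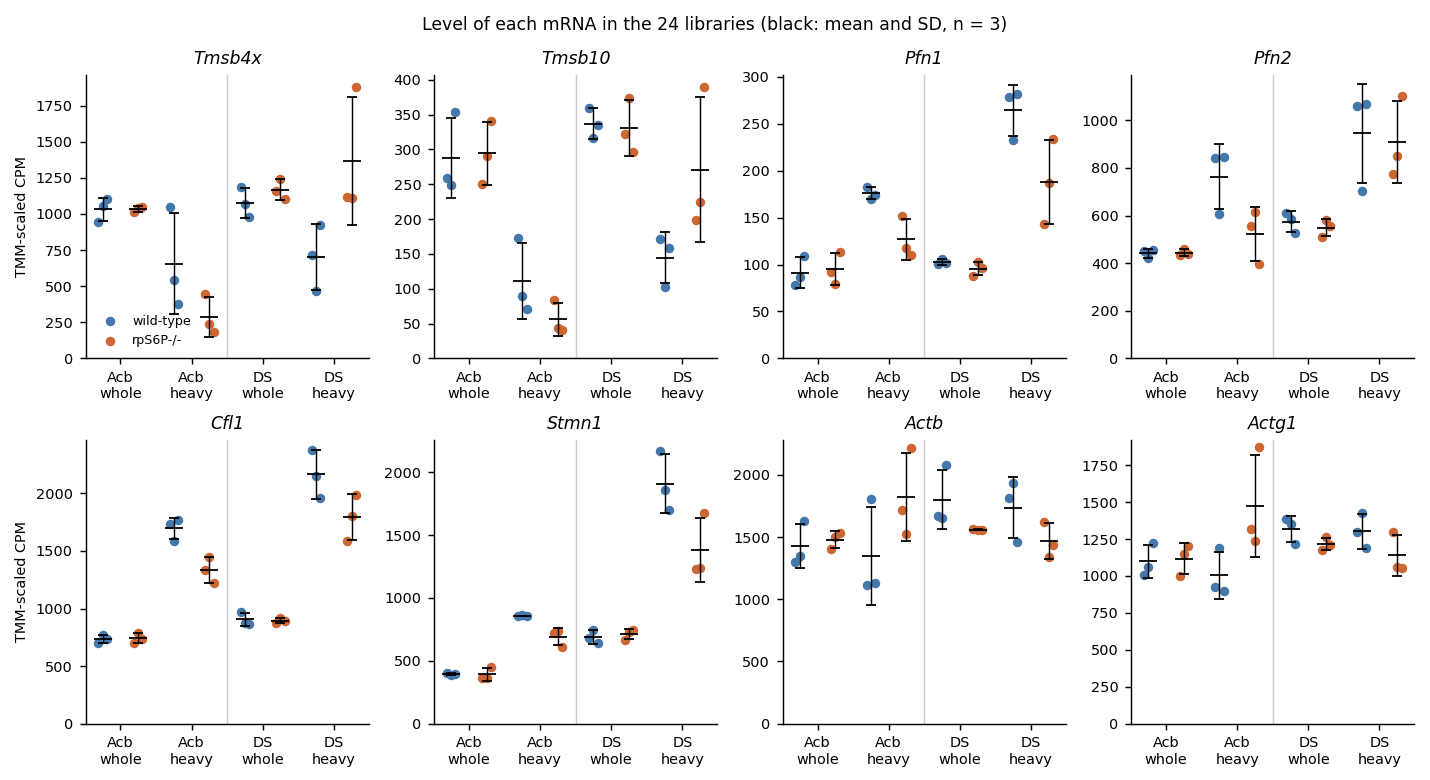
TMM-scaled CPM (vertical axis, from 0) of each mRNA in the 24 libraries, by region, RNA fraction and genotype; points are libraries and black marks are means with SD (n = 3). Tmsb4x stayed between 947 and 1244 CPM in whole lysates and spread from 181 to 1879 CPM in heavy polysomes.

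Heavy polysomes reordered these mRNAs. In wild-type Acb heavy polysomes Cfl1 had the highest mean with 1432 ± 78.8 RPKM, against 855 ± 457 RPKM for Tmsb4x. Tmsb10 had the lowest mean with 161 ± 78.2 RPKM. Replicates overlapped in both cases, with Tmsb4x reaching 1367 RPKM and Cfl1 as low as 1342 RPKM. Tmsb10 ran from 103 to 250 RPKM and Pfn1 from 198 to 212 RPKM. In rpS6P-/- Acb heavy polysomes Tmsb4x stood at 377 ± 181 RPKM, below Actb at 949 ± 186 RPKM. In rpS6P-/- DS heavy polysomes Tmsb4x stood at 1782 ± 576 RPKM and Cfl1 at 1514 ± 168 RPKM, values that overlapped between replicates.

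Over all 24 libraries the level of Tmsb4x covered a 10.4-fold range and that of Tmsb10 a 9.47-fold range. Stmn1 covered 6.01-fold, Pfn1 3.62-fold, Cfl1 3.40-fold, Pfn2 2.79-fold, Actg1 2.08-fold and Actb 1.98-fold. The wide range of the thymosins came from heavy polysomes. Within a group of 3 whole lysates the highest Tmsb4x level was at most 1.21 times the lowest, and within a group of 3 heavy polysomal libraries it was 1.69 to 2.80 times the lowest. For Cfl1 the same ratio was at most 1.12 in whole lysates and 1.25 in heavy polysomes. The largest such ratio in heavy polysomes was 2.44 for Tmsb10 and at most 1.63 for the other 6 mRNAs.

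Tmsb4x was measured in every whole lysate at a similar level. The 3 wild-type Acb lysates gave 947, 1052 and 1103 CPM and the rpS6P-/- Acb lysates 1014, 1044 and 1045 CPM. The wild-type DS lysates gave 1186, 1066 and 977 CPM and the rpS6P-/- DS lysates 1157, 1244 and 1102 CPM. The genotypes overlapped in both regions.

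In heavy polysomes its level varied far more. Wild-type Acb gave 1049.6, 546 and 375 CPM and rpS6P-/- Acb 446, 241 and 181 CPM. The genotypes overlapped there, since 1 wild-type library lay below the highest rpS6P-/- library. Wild-type DS gave 717, 465 and 922 CPM and rpS6P-/- DS 1118, 1109 and 1879 CPM, so that every rpS6P-/- library lay above every wild-type library. The highest value belonged to replicate 3 of the rpS6P-/- DS, whose whole lysate held 1102 CPM, the lowest of its group. No Xist read was counted in either library of that replicate, whereas Xist was detected in the other rpS6P-/- DS libraries. Replicate 3 of the wild-type Acb was also near 0 for Xist (0 CPM in the whole lysate and 0.0742 CPM in heavy polysomes), and its heavy polysomes held 375 CPM of Tmsb4x, the lowest of that group. Tmsb4x is X-linked, and the part of the sex makeup of the pools was not tested.

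Tmsb10 went the same way at a lower level. Wild-type Acb heavy polysomes gave 172, 90.3 and 70.8 CPM and rpS6P-/- Acb 83.7, 43.9 and 41.2 CPM. Wild-type DS heavy polysomes gave 172, 103 and 159 CPM and rpS6P-/- DS 199, 225 and 389.6 CPM. The ratio of Tmsb4x to Tmsb10 CPM stayed between 2.92 and 6.09 in all libraries. The ratio of Tmsb4x to Actb CPM, in contrast, ran from 0.0818 to 1.31.

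**Figure D2:**
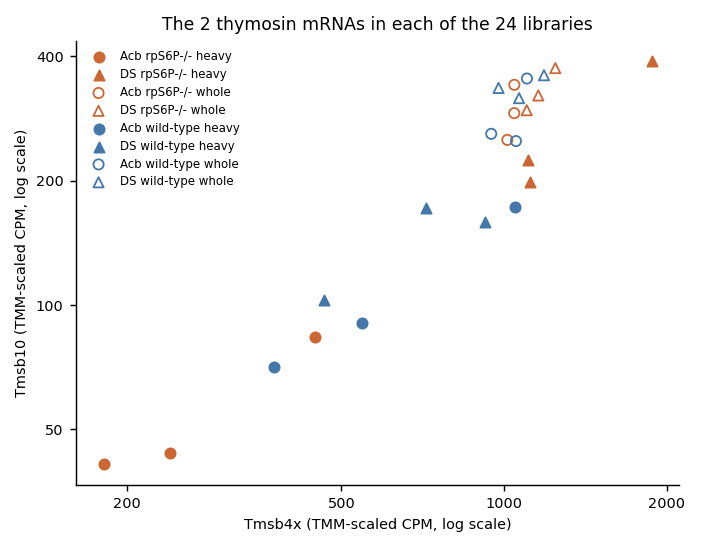
Tmsb10 against Tmsb4x, TMM-scaled CPM on log axes, in each of the 24 libraries (circles, Acb; triangles, DS; filled, heavy polysomes; open, whole lysates). The 12 whole lysates form a tight cluster, while heavy polysomal libraries spread from the rpS6P-/- Acb at the low end to the rpS6P-/- DS at the high end.

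Across the 24 libraries, the log2 levels of Tmsb4x and Tmsb10 correlated with r = 0.949 (a description, since libraries of 1 group, and both fractions of 1 lysate, are not independent points). Pfn1, Pfn2, Cfl1 and Stmn1 formed a second block, with r between 0.865 and 0.930, and Actb and Actg1 correlated with r = 0.877. The correlations of Tmsb4x with the other 6 mRNAs lay between -0.412 and 0.128.

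To ask which of these mRNAs were carried by many ribosomes, heavy polysomes were compared with whole lysates within each region and genotype, by quasi-likelihood tests in edgeR, adjusted over all genes tested after Benjamini and Hochberg. In both wild-type regions Pfn1, Pfn2, Cfl1 and Stmn1 were higher in heavy polysomes, and neither actin passed the test. The thymosins were lower in wild-type Acb. That is 6 of 8 mRNAs called in wild-type Acb, where 25.9% of all genes were called, and in rpS6P-/- Acb 4 of 8 passed (17.2% of all genes). The heavy DS libraries are those on which Tmsb4x was chosen, so that the thymosins are left out of the counts there. Of the other 6 mRNAs 4 were called in wild-type DS (24.3% of all genes) and 4 in rpS6P-/- DS (28.6% of all genes).

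Among the enriched mRNAs, Cfl1 was 2.31 ± 0.212 times as abundant in heavy polysomes as in the whole lysate of the same replicate in wild-type Acb (SD, n = 3) and 2.39 ± 0.108 times in wild-type DS. The fitted log2 differences were 1.15 (SE 0.13, adjusted p = 3.48e-07) and 1.26 (SE 0.13, adjusted p = 6.22e-08). In rpS6P-/- mice the ratio was 1.80 ± 0.117 in Acb and 2.001 ± 0.206 in DS, with log2 differences of 0.82 and 0.96, both past the threshold. Cfl1 was thus enriched in all 4 comparisons, and so was Stmn1, with ratios of 2.18 ± 0.0557 in wild-type Acb, 2.78 ± 0.357 in wild-type DS, 1.80 ± 0.369 in rpS6P-/- Acb and 1.92 ± 0.286 in rpS6P-/- DS. In rpS6P-/- DS the Stmn1 call was lost when the lysate was kept as a block and a trend on transcript length was removed from each library (0.30, adjusted p = 0.0715). Pfn1 was enriched in wild-type Acb (log2 difference 0.90, SE 0.15), wild-type DS (1.36, SE 0.15) and rpS6P-/- DS (0.94, SE 0.15). With the length trend removed Pfn1 dropped below the threshold in rpS6P-/- DS, without the block (0.24, adjusted p = 0.222) and with it (0.23, adjusted p = 0.294). In rpS6P-/- Acb, Pfn1 gave 0.39 (SE 0.18, adjusted p = 0.135). Pfn2 passed in the same comparisons as Pfn1, with 0.74, 0.72 and 0.69. Its rpS6P-/- DS call held under every alternative tried (adjusted p at most 0.00463). In rpS6P-/- Acb, Pfn2 gave 0.21 (SE 0.16, adjusted p = 0.422). Without replicate 3 of the rpS6P-/- Acb heavy polysomes Pfn2 passed there too, with 0.36 (adjusted p = 0.0392).

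The mean ratios of the thymosins lay below 1, except that of Tmsb4x in rpS6P-/- DS. Tmsb10 was at 0.409 ± 0.236 of its whole-lysate level in wild-type Acb, 0.425 ± 0.0865 in wild-type DS and 0.202 ± 0.115 in rpS6P-/- Acb. The log2 differences in Acb were -1.42 in wild-type (SE 0.22, adjusted p = 2.11e-05) and -2.42 in rpS6P-/- mice (SE 0.22, adjusted p = 1.54e-08), and that in wild-type DS was -1.22 (SE 0.17). In rpS6P-/- DS the ratio was 0.845 ± 0.408 and the log2 difference -0.32 (SE 0.15), or -0.68 without replicate 3 of the heavy polysomes.

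Tmsb4x had higher mean ratios than Tmsb10 in all 4 groups. Its ratio was 0.656 ± 0.402 in wild-type Acb, with single replicates at 1.11, 0.519 and 0.340, and its log2 difference was -0.71 (SE 0.21, adjusted p = 0.0149). This call was lost with DESeq2 (adjusted p = 0.194) and on leaving out 5 of the 6 libraries in turn, with log2 differences of -0.43 to -0.77. Without replicate 1 of the heavy polysomes it reached -1.22. In wild-type DS the ratio was 0.661 ± 0.258 (log2 difference -0.62, SE 0.17) and in rpS6P-/- Acb 0.281 ± 0.140 (-1.87, SE 0.21, adjusted p = 7.24e-07). In rpS6P-/- DS single replicates gave 0.966, 0.891 and 1.71, and the log2 difference of 0.19 (SE 0.13) turned to -0.11 without replicate 3 of the heavy polysomes. With the length trend removed it was -0.56 and that of Tmsb10 -1.13.

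Outside rpS6P-/- Acb the actin mRNAs had mean ratios near 1. Actb ratios ranged from 0.940 ± 0.0896 in rpS6P-/- DS to 1.23 ± 0.214 in rpS6P-/- Acb, and Actg1 ratios from 0.924 ± 0.194 in wild-type Acb to 1.32 ± 0.236 in rpS6P-/- Acb. None of the 8 comparisons of an actin passed the test; 1 of them, Actg1 in rpS6P-/- Acb (0.38), had an unadjusted p under 0.05, and DESeq2 called none. Without replicate 2 of the wild-type Acb heavy polysomes both were lower there, Actb by -0.40 (adjusted p = 0.0141) and Actg1 by -0.32 (adjusted p = 0.0462), and without replicate 2 of the rpS6P-/- Acb heavy polysomes Actg1 was higher by 0.50 (adjusted p = 0.0488). With the length trend removed both actins were called lower in rpS6P-/- DS, Actb with -0.38 (adjusted p = 0.00823) and Actg1 with -0.39 (adjusted p = 0.00933), and Actg1 in wild-type Acb (-0.43, adjusted p = 0.0109). With the lysate block as well, Actb passed there too (-0.41, adjusted p = 0.00435).

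**Figure D3:**
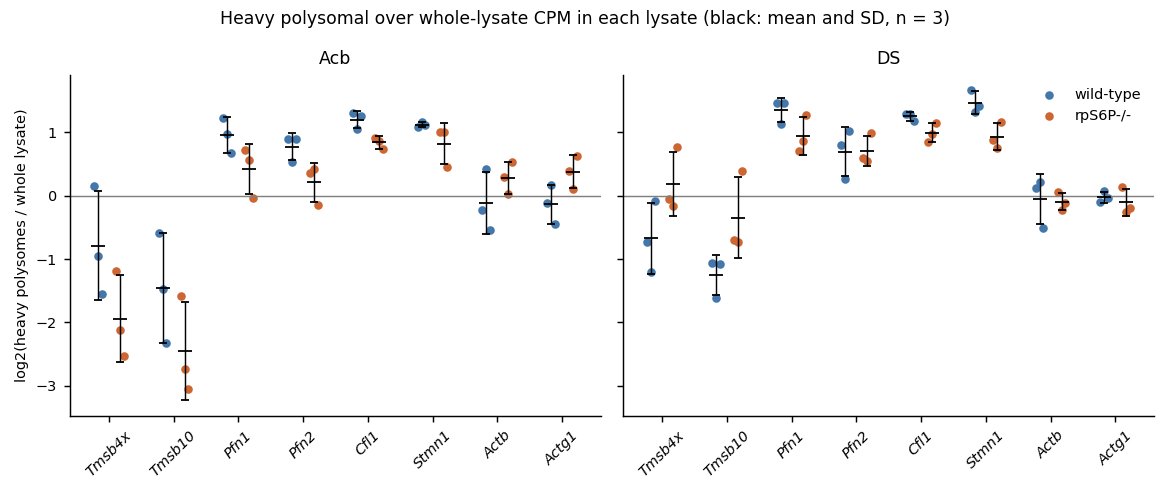
Log2 ratio of heavy polysomal to whole-lysate CPM of the same replicate, for the 8 mRNAs in Acb and DS. Points are replicates and black marks are means with SD (n = 3), with 0 meaning equal CPM. The means of cofilin, stathmin and the profilins lie above 0. Those of the actins lie near 0 except in the rpS6P-/- Acb, where Actb (0.28) and Actg1 (0.38) exceed Pfn2 (0.21). The means of the thymosins lie below 0, except that of Tmsb4x in the rpS6P-/- DS, which is 0.18.

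The next comparison asked whether the absence of rpS6 phosphorylation changed the abundance of these mRNAs. In whole lysates none of the 8 passed the test in either region, also with DESeq2. In Acb, where 0.0065% of all genes were called, none had an unadjusted p under 0.05 and their log2 differences, rpS6P-/- over wild-type, lay between -0.01 and 0.05. In DS, where 0.122% of all genes were called, Actb alone had an unadjusted p under 0.05, with -0.23 (SE 0.08, adjusted p = 0.310), from 1801 ± 238 CPM in wild-type to 1561 ± 4.35 CPM in rpS6P-/- DS. Without replicate 3 of the wild-type DS it was -0.11. The differences of the other 7 lay between -0.13 and 0.10. The genotype groups did not overlap for 1 of the 8 mRNAs in DS (Actb; 13.6% of all genes) and for none in Acb (8.37% of all genes).

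In Acb heavy polysomes the thymosins had the largest differences of the 8, both toward lower levels in rpS6P-/- mice. Tmsb4x differed by -1.15 (SE 0.32, adjusted p = 0.106), from 657 ± 351 to 289 ± 139 CPM, and Tmsb10 by -0.95 (SE 0.30, adjusted p = 0.118), from 111 ± 54.0 to 56.3 ± 23.8 CPM. Neither passed the test, while both did without a filter on low counts (adjusted p = 0.0152 and 0.0262). Replicate 1 of the wild-type group was the highest wild-type library for both, and without it the differences were -0.63 for Tmsb4x and -0.48 for Tmsb10.

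Profilins and cofilin also gave lower values, Pfn2 by -0.52 (SE 0.18, adjusted p = 0.135), Pfn1 by -0.44 (SE 0.16, adjusted p = 0.147) and Cfl1 by -0.31 (SE 0.14, adjusted p = 0.203). The difference of Pfn1, and that of Stmn1 given below, turned positive once the length trend was removed. All genes with coding sequences from 400 to 600 bases, as in Pfn1, Pfn2 and Cfl1, had a median of -0.45 (quartiles -0.59 and -0.29). The part of coding length was not tested. The actins gave higher values, Actg1 by 0.59 (SE 0.18, adjusted p = 0.112) and Actb by 0.47 (SE 0.19, adjusted p = 0.177). Without replicate 3 of the rpS6P-/- group they gave 0.37 and 0.30, without replicate 2 of the wild-type group Actb gave 0.74, and without a filter on low counts Actg1 passed (adjusted p = 0.0459). No gene at all was called in this comparison with edgeR (0% of 16227), although 3518 genes had an unadjusted p under 0.05, and DESeq2 called 1090. At that unadjusted level 2 of the 8 mRNAs were higher and 5 lower, and DESeq2 called Actg1 higher and Pfn1 and Pfn2 lower. The median log2 difference was -0.37 over the 8 mRNAs and -0.01 over all genes.

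The genotype groups did not overlap in Acb heavy polysomes for 4 of the 8 mRNAs, at a background of 25% of all genes. Actg1 was above and Pfn1, Cfl1 and Stmn1 were below the wild-type range. Stmn1, at 854, 860.3 and 854 CPM, was almost constant in wild-type mice and lay at 723, 738 and 613 CPM in rpS6P-/- mice (log2 difference -0.27, SE 0.14, adjusted p = 0.272).

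In DS heavy polysomes, the contrast on which Tmsb4x was chosen, Tmsb4x differed by 0.97 (SE 0.20) and Tmsb10 by 0.92 (SE 0.21) on the log2 scale. Without replicate 3 of the rpS6P-/- DS these differences were 0.68 and 0.57. The other 6 mRNAs lay between -0.48 (Pfn1) and -0.05 (Pfn2), with Stmn1 at -0.46, Cfl1 at -0.26, Actb at -0.23 and Actg1 at -0.18. Of these 6, only Stmn1 had groups that did not overlap, with 11.1% of all genes not overlapping and 0.044% called. The thymosins did not overlap either, but they were picked from this contrast and are left out of that count. Pfn1 and Cfl1 did not rise with the thymosins there. Pfn2 had no clear direction, reaching 0.05 without replicate 3 of the wild-type DS.

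**Figure D4:**
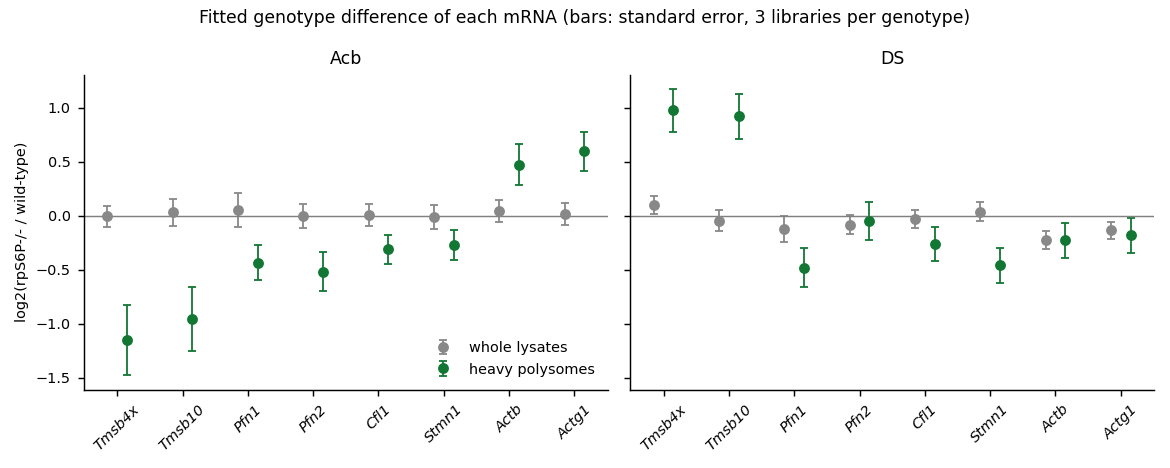
Fitted log2 difference, rpS6P-/- over wild-type, of the 8 mRNAs in whole lysates (grey) and heavy polysomes (green) of Acb and DS; bars are standard errors (3 libraries per genotype). Whole-lysate values lie between -0.23 and 0.10, while the thymosins reach -1.15 in Acb and 0.97 in DS heavy polysomes.

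Putting both fractions in 1 fit gives the change in translational efficiency, the genotype difference in heavy polysomes beyond that in whole lysates. It rests on the same heavy libraries as the values above. In Acb it was -1.16 for Tmsb4x (SE 0.32, adjusted p = 0.220) and -0.99 for Tmsb10 (SE 0.32, adjusted p = 0.253), and 0 of 16687 genes (0%) were called with edgeR, 1992 of them with an unadjusted p under 0.05, and none with DESeq2. When each replicate was kept as a block, which takes its 2 fractions as paired, both thymosins passed. Tmsb4x gave -1.12 (adjusted p = 2.41e-04) and Tmsb10 -0.96 (adjusted p = 0.0140), among 106 genes called. With a trend on transcript length removed from each library as well, Tmsb4x gave -0.70 (adjusted p = 0.0195) and Tmsb10 -0.49 (adjusted p = 0.259). Both also passed without a filter on low counts (adjusted p = 1.31e-04 and 0.00678). In the unblocked fit, both passed without replicate 1 of the rpS6P-/- Acb, with -1.60 (adjusted p = 0.0207) and -1.47 (adjusted p = 0.0267), whereas without replicate 1 of the wild-type Acb the values were -0.59 (adjusted p = 0.723) and -0.46 (adjusted p = 0.753).

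For the other 6 mRNAs the change in Acb ran from -0.52 (Pfn2) to 0.57 (Actg1), and none passed the test, the smallest adjusted p being 0.316 for Actg1. In DS, where the heavy libraries had served for choosing Tmsb4x, the change was 0.85 for Tmsb4x, 0.94 for Tmsb10 and -0.52 for Stmn1, and -0.39 to 0.01 for the other 5. No gene of 16544 was called there (0%), 811 having an unadjusted p under 0.05, and DESeq2 called none. The difference between regions in the heavy genotype effect, Acb minus DS, was -2.11 for Tmsb4x, -1.86 for Tmsb10, 0.72 for Actb, 0.79 for Actg1 and between -0.45 and 0.20 for the other 4; 1 of 16880 genes (0.00592%) was called. Without replicate 1 of the wild-type Acb heavy polysomes the thymosin values were -1.60 and -1.39.

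Other mRNAs with short coding sequences had medians in the direction of the thymosins. In Acb heavy polysomes the 38 genes with coding sequences of at most 200 bases had a median genotype difference of -0.95 (quartiles -1.15 and -0.60). The median was -0.65 for the 523 genes from there to 400 bases and -0.45 for the 957 genes up to 600 bases. The 3404 genes from there to 1200 bases had a median of -0.14 (quartiles -0.35 and 0.16). Both actins fall in that bin and lay above its upper quartile, Actb at 0.47 and Actg1 at 0.59. The median was 0.16 for the 4546 genes between 1200 and 2400 bases. In DS heavy polysomes the 38 shortest had a median of 0.56 (quartiles 0.30 and 0.85), and the bins above 400 bases lay between -0.05 and 0.05. In whole lysates the shortest bin was at -0.09 in Acb and -0.03 in DS. These 38 genes include the thymosins, and the part of coding length in the differences of single mRNAs was not tested.

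The same bins described the fractions. In wild-type Acb, the ratio of heavy polysomes to whole lysates had a median log2 value of -0.68 for coding sequences up to 200 bases, 0.34 up to 400 bases, 0.59 up to 600 bases and -0.54 beyond 2400 bases. Tmsb10 (-1.42) thus lay below the lower quartile of its bin (-1.36), and Tmsb4x (-0.71) close to its median. Pfn1, Pfn2, Cfl1 and Stmn1 all fall in the 400 to 600 base bin, where the median was highest, and the actins in the bin from 600 to 1200 bases, with a median of 0.38, above both of them. In wild-type DS the shortest bin had a median of -0.41 and the 400 to 600 base bin one of 0.67.

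**Figure D5:**
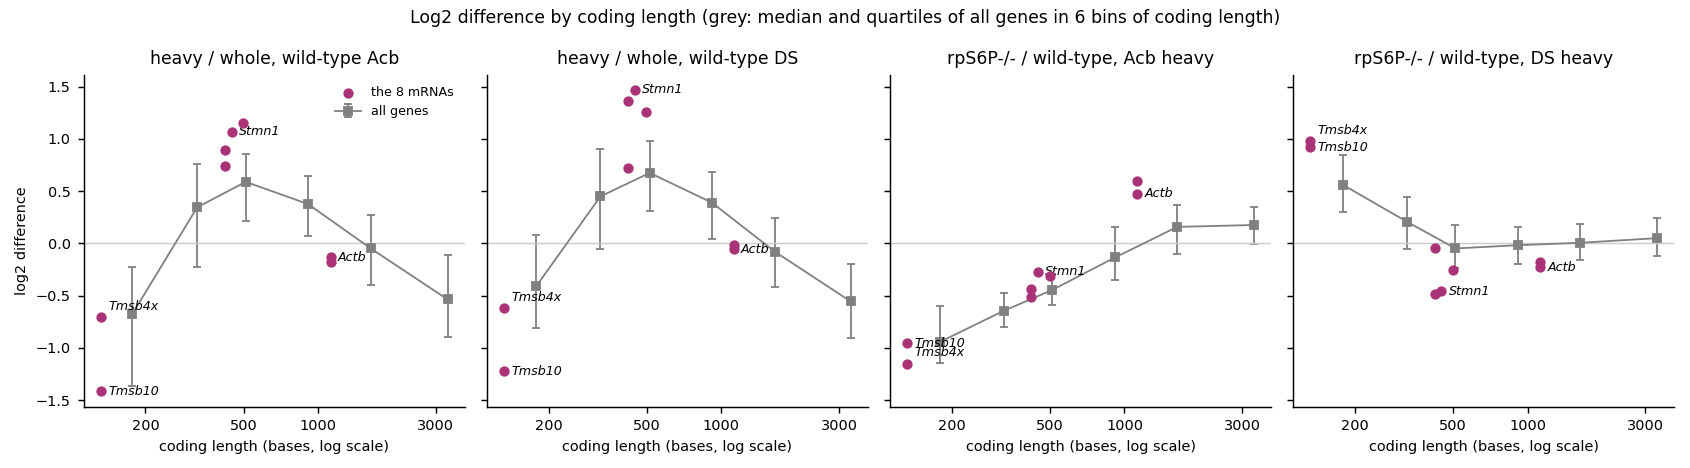
Log2 differences (vertical axis) against coding length (bases, log axis) for heavy over whole in wild-type Acb and DS, and rpS6P-/- over wild-type in Acb and DS heavy polysomes; grey squares and bars are medians and quartiles of all genes in 6 bins of coding length, and purple points are the 8 mRNAs. The shortest bin runs with the thymosins in each panel, at -0.68, -0.41, -0.95 and 0.56 from left to right.

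The genes whose level most resembled that of Tmsb4x over the 24 libraries, among 11979 with at least 50 reads on average, were Brk1 (r = 0.980), Atp5e (r = 0.976), Tomm7 (r = 0.975), Usmg5 (r = 0.973) and Uqcr10 (r = 0.971). Brk1 encodes a small subunit of the WAVE complex that switches on actin nucleation, while the other 4 encode small mitochondrial proteins of ATP synthase, the outer-membrane import complex and respiratory complex III. Their coding sequences were 156 to 225 bases long. Tmsb10 came 14th in this list. In Acb heavy polysomes the 5 differed between genotypes by -0.58 (Brk1) to -1.15 (Usmg5), and in DS heavy polysomes by 0.59 (Uqcr10) to 1.02 (Usmg5); these libraries were among those that gave the correlation.

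The regions themselves were compared in whole lysates, Acb over DS. Stmn1 was lower in Acb in both genotypes. Wild-type Acb gave 400.04, 384 and 395 CPM and wild-type DS 680.5, 744 and 639 CPM, without overlap (log2 difference -0.78, SE 0.11, adjusted p = 3.90e-07). In rpS6P-/- mice Stmn1 went from 715 ± 40.8 CPM in DS to 391 ± 48.6 CPM in Acb (-0.84, SE 0.10, adjusted p = 1.35e-08). Pfn2 was lower too, by -0.35 in wild-type (SE 0.11, adjusted p = 0.0206) and -0.29 in rpS6P-/- mice (SE 0.09, adjusted p = 0.0356). Cfl1 gave -0.27 (SE 0.10, adjusted p = 0.0696) in wild-type and -0.25 (SE 0.08, adjusted p = 0.0495) in rpS6P-/- mice. Actb was lower in wild-type Acb, by -0.31 (SE 0.10, adjusted p = 0.0395), and gave -0.05 (SE 0.08, adjusted p = 0.773) in rpS6P-/- mice; the difference between the genotypes in this was not tested.

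That made 3 of 8 mRNAs lower and none higher in Acb in each genotype, with 12.7% of all genes called in wild-type and 10.9% in rpS6P-/- mice. Tmsb4x gave -0.03 (SE 0.10) and -0.15 (SE 0.08) and Tmsb10 -0.20 (SE 0.12) and -0.14 (SE 0.11), none past the threshold. With the length trend removed, Tmsb4x was called in rpS6P-/- mice (-0.29, adjusted p = 0.0101) and Tmsb10 (-0.37, adjusted p = 0.0144), Cfl1 (-0.34, adjusted p = 0.00571) and Actg1 (-0.25, adjusted p = 0.0332) in wild-type mice, and with the block as well Tmsb10 was called in rpS6P-/- mice too (-0.30, adjusted p = 0.0222). DESeq2 called Cfl1 in wild-type mice as well (-0.27, adjusted p = 0.0105), 4 of the 8 in all, where it called 13.4% of all genes. Without replicate 3 of the wild-type Acb, Tmsb10 (-0.37, adjusted p = 0.0308) and Actg1 (-0.32, adjusted p = 0.0278) passed. The Pfn2 call in rpS6P-/- mice was also lost with DESeq2 size factors (-0.27, adjusted p = 0.0526), and the Actb call with edgeR's own expression filter (-0.30, adjusted p = 0.0622). The Stmn1 calls held on leaving out any library. The Pfn2 call was lost without replicate 1 (-0.31) or 2 (-0.33) of the wild-type DS or replicate 2 (-0.31) of the wild-type Acb, and without any 1 of the 6 rpS6P-/- libraries (-0.24 to -0.33). The Actb call was lost without replicate 3 of the DS (-0.19) or replicate 1 (-0.24) or 2 (-0.27) of the Acb, and the Cfl1 call without 5 of 6 libraries (-0.20 to -0.25) and with DESeq2 size factors, edgeR's expression filter or no filter (adjusted p of 0.0556 to 0.0752). The cortical marker sum moved with these differences, being higher in DS, while astrocyte (7 of 7 detected) and oligodendrocyte markers (8 of 8) were higher in Acb, at 2185 to 3040 against 1702 to 2143 CPM and, with overlap, 3072 to 4193 against 2763 to 3459 CPM; their part in the differences was not tested.

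A wider list of 138 genes of actin and microtubule dynamics put these values in context. None of the 131 to 135 measured members was called between genotypes in either fraction or region, nor in translational efficiency or in the genotype effect between regions, with edgeR. In Acb heavy polysomes 25 of 132 were higher and 10 lower at an unadjusted p under 0.05, together 26.5% against 21.7% of all genes, and DESeq2 called 12 higher and 2 lower (6.72% of all genes). In DS heavy polysomes 4 of 133 were higher and 5 lower at that level (6.77% against 6.42% of all genes). The counts were 6 of 131 and none in Acb whole lysates (4.58% against 2.96%) and 3 of 133 and 11 in DS whole lysates (10.5% against 9.07%). Translational efficiency gave 10 and 11 of 134 in Acb (15.7% against 11.9%) and 3 and 4 of 134 in DS (5.22% against 4.90%), and DESeq2 called none in these 5 comparisons. For the genotype effect between regions the counts were 26 and 5 of 135 (23.0% against 13.8%), and DESeq2 called 2 and 1 (1.40% of all genes).

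Between fractions, 27 of 133 were higher and 38 lower in heavy polysomes of wild-type Acb, 48.9% of the list against 25.9% of all genes. In wild-type DS the counts were 26 and 37 of 131, 48.1% against 24.3% of all genes. The medians of the list were -0.19 and -0.20, against 0.03 and 0.00 over all genes. Arpc3, a subunit of the Arp2/3 complex that nucleates branched filaments, rose from 125 ± 9.73 to 273 ± 33.6 CPM in wild-type Acb (log2 difference 1.07, SE 0.15) and by 1.28 (SE 0.15) in wild-type DS. Dstn, the close relative of cofilin, rose by 0.97 in wild-type and 0.87 in rpS6P-/- Acb. Myh9, a non-muscle myosin heavy chain, fell by 1.39 in wild-type Acb and fell by 1.29 in rpS6P-/- Acb. Mkl1, the actin-sensing coactivator of SRF, was lower in heavy polysomes, with -1.27 in wild-type Acb, -1.43 in wild-type DS and -1.54 in rpS6P-/- DS.

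Among the formins, which elongate unbranched filaments, Daam2 fell by 1.21 in wild-type Acb, and Diap2 fell by 1.44 in wild-type DS, from 40.3 ± 11.5 to 14.9 ± 3.23 CPM, and fell by 1.62 in rpS6P-/- DS. By group, 1 of 19 formins and elongation factors was higher and 5 lower in wild-type Acb, 31.6% called at a background of 25.9% of all genes. Of the 10 Arp2/3 subunits 4 were higher and 2 lower, and of the 21 cross-linkers and tropomyosins 2 were higher and 11 lower (61.9% called). The groups were not tested against each other. In rpS6P-/- Acb, where the thymosins were most depleted, 24 of 132 list members were higher and 17 lower (31.1% against 17.2% of all genes), and Brk1 fell by 1.18, from 196 ± 5.89 to 88.1 ± 23.4 CPM. In rpS6P-/- DS 27 of 134 were higher and 40 lower (50.0% against 28.6% of all genes).

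Between regions, 41 of 130 list members were lower and 7 higher in Acb than in DS whole lysates of wild-type mice (36.9% against 12.7% of all genes), and 32 of 132 lower and 2 higher in rpS6P-/- mice (25.8% against 10.9%). Among those lower in wild-type Acb were the formins Fmn1 (-1.38, SE 0.30) and Fhod3 (-1.37, SE 0.25) and the tropomyosin Tpm2 (-1.36, SE 0.35). In rpS6P-/- Acb, Coro2a (-1.14, SE 0.26), Cobl (-1.09, SE 0.14) and Fmnl1 (-1.07, SE 0.15) were lower. They fell furthest among the called list members with at least 50 reads on average. Cotl1, a filament-binding relative of cofilin, was higher in Acb in both genotypes, by 0.62 (SE 0.17, adjusted p = 0.0121) and 1.09 (SE 0.18, adjusted p = 1.82e-05). Gsn, which severs and caps filaments, was higher by 0.64 (SE 0.20) and Eps8, a capping protein, by 0.76 (SE 0.25) in wild-type Acb, and Tubb2b by 0.57 (SE 0.14) in rpS6P-/- Acb.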

How the data were processed

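Per the labels and the study's methods, the authors aligned 50-base single-end reads of stranded libraries to mouse genome mm10 with TopHat2 2.0.13 and Bowtie2 2.2.3 and counted them per gene on the opposite strand with HTSeq 0.6.1p1. The deposited values are raw read counts per gene; 5363 genes were at 0 in every library. Counts were tested with edgeR 4.0.16 (quasi-likelihood, TMM factors, R 4.3.3) among genes with at least 15 reads summed over the libraries compared, with Benjamini-Hochberg adjustment over all of these and a threshold of 0.05. Signed differences are log2 values. DESeq2 1.42.0, other filters and scalings, a trend on transcript length, replicate blocks and the omission of each library were tried as alternatives, and edgeR's bias-adjusted form was added after seeing the data. For some of the comparisons the fits were also run on simulated counts, and no outcome of that is given here.

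Transcript lengths for RPKM and coding lengths came from GENCODE M21 (GRCm38) and were found for 21209 genes; the bins of coding length were set after seeing the data. The 8 genes and all lists were chosen with earlier results of these data known. From the wider list, up to 3 genes per direction and comparison are named, those with the largest called change and at least 50 reads on average. Replicate numbers were taken to pair the fractions of a lysate, since the methods take the input from it. The methods also describe each replicate as heavy polysomal fractions pooled from more than a single sample. A pair may therefore not come from a single lysate, and a lysate kept as a block means the libraries of the same replicate number. The deviations of paired fractions from their group means correlated by -0.0376 to 0.0743, over 0.1 in 0 of 12 pairs. Bc1 took 15.2 to 26.1% of reads in whole lysates and 0.897 to 3.85% in heavy polysomes. How many mice each replicate pooled is given differently in different places of the study.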

Additional observations from a re-analysis of the deposited data

How the results depend on the processing

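The counts of genes called depended on the settings in the genotype comparisons, and the cause was not tested. For Acb heavy polysomes (0 called), 1090 genes were called with DESeq2, 549 without a filter, 3 with the length trend removed, 98 with a replicate block and 4 with both. For Acb whole lysates (1 called), 0 were called with filterByExpr, 2 without a filter, 2 with the length trend removed, 2 with the bias-adjusted form, 5 with the block and 4 with both. For DS heavy polysomes (7 called), the counts were 17 with DESeq2, 1 with filterByExpr, 37 without a filter, 14 with the length trend removed, 31 with the block and 17 with both. For DS whole lysates (19 called), they were 95, 2, 66, 10, 71 and 30 in the same order. Translational efficiency in Acb (0 called) gave 107 without a filter, 106 with the lysate block and 118 with block and trend, and in DS (0 called) 5 without a filter and 6 with the block. For the genotype effect between regions (1 called), DESeq2 called 236, filterByExpr 0, the bias-adjusted form 46, no filter 353, the length trend 0, the block 117 and both 47. Comparisons of fractions and of regions stayed within 1.5 times their count.

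Without 1 library at a time, the ranges were 0 to 3 for Acb heavy, 0 to 3 for Acb whole, 0 to 29 for DS heavy, 1 to 56 for DS whole, 0 to 41 and 0 to 17 for translational efficiency in Acb and DS, 0 to 183 for the effect between regions, 1720 to 2584 for the fractions in rpS6P-/- Acb, 1049 to 1554 for the regions in rpS6P-/- mice, 3087 to 4064 and 2875 to 4293 for the fractions in wild-type Acb and DS, 3713 to 4636 for those in rpS6P-/- DS, and 1327 to 1728 for the regions in wild-type mice.

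With the length trend removed, alone and with the block, signs turned for Pfn1 (0.0411 and 0.0363) and Stmn1 (0.0808 and 0.0798) in Acb heavy polysomes, Pfn2 between fractions in rpS6P-/- Acb (-0.0196 and -0.0399), Tmsb4x between fractions in rpS6P-/- DS (-0.56 and -0.58) and Pfn1 between regions in rpS6P-/- mice (-0.12 and -0.12). Without 1 library at a time, values of both signs were found for Actb (-0.145 to 0.0609) and Actg1 (-0.0945 to 0.0461) between fractions in wild-type DS, Tmsb4x between fractions in rpS6P-/- DS (-0.106 to 0.327) and between regions in wild-type mice (-0.092 to 0.0403), and Pfn1 between regions in rpS6P-/- mice (-0.121 to 0.131). The same held for Pfn2 between genotypes in DS heavy polysomes (-0.221 to 0.0516). In DS translational efficiency it held for Actb (-0.2596 to 0.1057) and Pfn2 (-0.1761 to 0.1641). In the genotype effect between regions it held for Pfn1 (-0.123 to 0.2052) and Cfl1 (-0.1475 to 0.036).

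Genotype and region share only replicate numbers: deviations correlated by -0.294 to 0.319 (over 0.1 in 2 of 12 pairs) between genotypes, and between regions by -0.0306 to 0.0249 in whole lysates (0 of 6) and -0.255 to 0.217 in heavy polysomes (1 of 6). With these numbers as a block Tmsb4x (-1.12, adjusted p = 0.0122) and Tmsb10 (-0.92, adjusted p = 0.0223) were called in Acb heavy polysomes. Beyond the results named beside their values, and the thymosins between fractions in DS, which are given without a test (Tmsb10 in rpS6P-/- DS was -0.38 with the block), the lysate block changed no call of the 8 mRNAs.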
